A study of Mus musculus with 6 samples.

Results

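Complement is a set of plasma and cell-surface proteins, and 9 of its genes were followed here through single nuclei of the mouse kidney cortex. They are C3, C4b and Cfb, which form or activate the central convertases, C1qa, C1qb, C1qc and C1s1 of the initiating C1 complex, and the regulators Cfi and Cd55. The genes were listed by name and looked up in the gene list of the files, where all 9 of the 9 were found among 31053 genes. The question was which cell type holds the RNA of each gene, and whether its level differed between the genotypes.

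The knockout mice carried Podocin-Cre Klf4 fl/fl and the control mice Klf4 fl/fl with no Cre named, both on the FVB/N strain, so that the floxed Klf4 allele was common to both groups. Klf4 encodes a zinc-finger transcription factor, and the Podocin promoter drives Cre in podocytes, the epithelial cells that cover the glomerular capillaries. There were 3 knockout and 3 control libraries, each of nuclear RNA from cortex read on the 10x droplet platform, in which every RNA molecule carries a unique molecular identifier (UMI). The age and sex of the mice are not given in the sources used here. The labels do not say that each library was a separate animal, so the p-values measure the spread between libraries.

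The complement cascade starts in 3 ways that meet at C3. In the classical pathway C1q binds its target and the proteases C1r and C1s cut C4 and C2, whereas the alternative pathway builds its convertase from C3 and factor B. The membrane protein CD55 speeds the decay of convertases and the protease factor I cuts C3b and C4b, so that both limit the cascade. The liver makes most circulating C3, macrophages are the best known source of C1q, and kidney tubule cells are known to make C3 under inflammation.

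The 6 libraries held 64442 barcodes, of which 54423 were used after filters, with 8270961 to 62016616 UMIs per library before them. Knockout 1 and control 1 stood apart, with 18238 and 16726 of the nuclei used and a median mitochondrial share of 1.02% and 2.5%, against 0.0851 to 0.162% in the other 4 libraries. Same-numbered libraries shared 132, 23 and 74 cell barcodes for numbers 1, 2 and 3, and the other pairs of libraries shared 5 to 36. These counts were not scaled for library size, and sharing by chance grows with it. Control 1 and knockout 1 held 21957 and 22080 barcodes, against 3919 to 6079 in the other libraries. Klf4 itself reached 5.72, 1.38 and 4.01 CPM (UMIs of the gene scaled to a total of 1000000) over all nuclei of knockouts 1, 2 and 3 and 2.63, 1.16 and 1.98 CPM in controls 1, 2 and 3. In podocyte nuclei it had 4, 0 and 1 UMIs in the knockouts and 1, 0 and 0 in the controls, so these counts do not check the genotype, and the labels do not give the deleted exons. Nuclei were grouped by clustering without the complement genes and named from marker genes, so that a cell type name below means nuclei resembling that type. The proximal tubule was named by default, from clusters in which the markers of no other class scored high. Proximal tubule markers were also read in other classes, where their summed CPM was 64.5 to 77.4% of the proximal tubule level in endothelial nuclei of the knockouts and 8.95 to 27.3% in distal convoluted tubule nuclei. The levels by cell type below include such RNA from other cells.

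C3, the protein on which all pathways converge, lies on the minus strand of chromosome 17 at chr17:57203970-57228136 (GRCm38) and was higher over all nuclei of the knockouts. Its level was 15.2, 21.9 and 14.6 CPM in knockouts 1, 2 and 3, against 0.679, 1.03 and 1.90 CPM in controls 1, 2 and 3. The groups did not overlap, and the lowest knockout library lay above the highest control library. The log2 fold change was 3.85 ± 0.42 (SE, n = 3 each), with an adjusted p of 0.0367 in edgeR's quasi-likelihood test over 16130 genes. C3 was the only member of the 8 tested over all nuclei that passed, where 0.192% of all genes tested were called and 0.149% were called higher in the knockouts. With barcodes found in 2 or more libraries left out it was 4.01 ± 0.38 (edgeR adjusted p = 0.0255). The call was lost without knockout 2 (adjusted p = 0.244), knockout 3 (0.0996), control 2 (0.196) or control 3 (0.0896), while the direction held in each case.

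**Figure D1:**
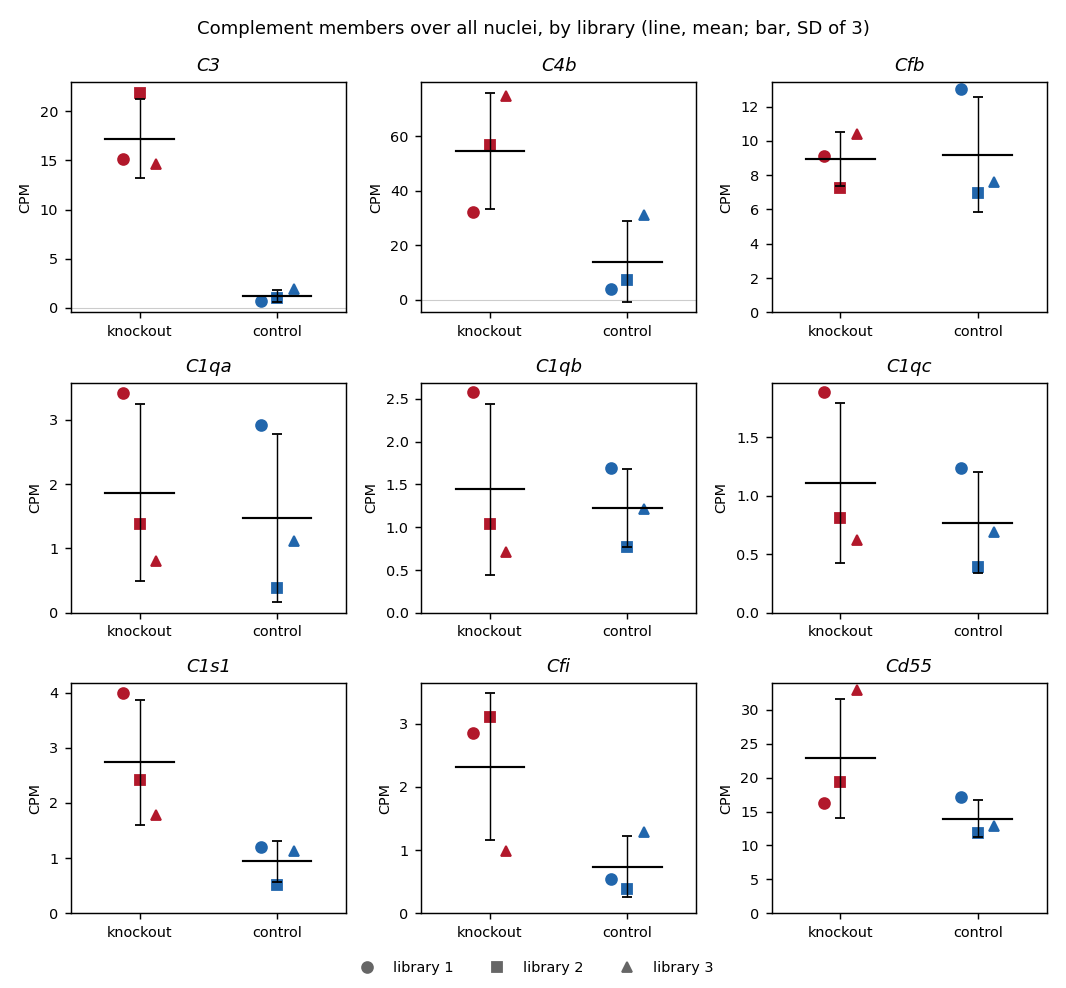
CPM of the 9 members over all nuclei, with knockout libraries on the left and control libraries on the right of each panel; a point is 1 library, the line is the mean and the bar the SD of 3. C3 lies between 14.6 and 21.9 CPM in the knockouts and below 2 CPM in the controls, while Cfb and the C1q genes overlap.

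C3 was at its highest in tubule nuclei with injury markers. The injured tubule class, 1623 knockout nuclei named from genes such as Havcr1, which encodes the injury receptor KIM-1, had 62.8, 177 and 157 CPM of C3 in knockouts 1, 2 and 3, on 144, 58 and 51 UMIs. The next class in the order of knockout means, parietal epithelial nuclei, had 33.9, 31.4 and 19 CPM on 4, 1 and 1 UMIs and did not overlap it. Fibroblasts came next, with 17.6, 0 and 56.3 CPM on 4, 0 and 4 UMIs. In the controls parietal epithelial nuclei came first with 13.4, 42.0 and 47.4 CPM on 1 UMI in each library. The injured tubule class had only 29 control nuclei and 0 C3 UMIs among them, a count that allows up to 45.1 CPM over the 3 controls together. With 22, 3 and 4 such nuclei in controls 1, 2 and 3, the class could not be tested between the genotypes.

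Injured tubule nuclei held 28.1% of all C3 UMIs in the knockouts and 5.27% of all UMIs there. Proximal tubule nuclei, which held 43.4% of all UMIs, gave 23.3% of the C3 UMIs. Another 28.9% came from clusters that stayed unnamed, chiefly 1 cluster whose best marker score was that of the injured tubule but below the threshold for a name. That cluster had 55.3, 108 and 159 CPM of C3 in knockouts 1, 2 and 3 on 89, 44 and 39 UMIs, against 0, 197 and 11.4 CPM in controls 1, 2 and 3 on 0, 2 and 4 UMIs, where control 2 had only 6 of its nuclei. C3 was among the 10 leading genes of the cluster although it took no part in the clustering. When the cluster was added to the injured tubule class, a choice made after the data were seen, C3 could be tested in 3 knockout and 2 control libraries and was higher in the knockouts (log2 fold change 4.66 ± 0.84, edgeR adjusted p = 0.00957). The test left out control 2, which had 9 such nuclei against the 10 required. In this widened class C3 had 59.7, 139 and 158 CPM in knockouts 1, 2 and 3, against 0, 150.5 and 11.2 CPM in controls 1, 2 and 3 on 0, 2 and 4 UMIs, so that the control left out lay within the knockout range. Under other settings, which rebuilt the clusters, the injured tubule class as then named could be tested with 2 control libraries, and C3 was not called. Its log2 fold change was 2.72 ± 1.07 with doublets kept (edgeR adjusted p = 0.353) and 2.79 ± 0.98 with complement genes kept in the clustering (edgeR adjusted p = 0.255).

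The share of nuclei with a C3 UMI was also highest in the injured tubule at equal depth. With each nucleus thinned to 1000 UMIs, 7.32% of 1379 injured tubule nuclei of the knockouts had one, with a 95% exact interval of 6.0 to 8.83%. In the thick ascending limb, a background class here, the share was 0.665% of 1053 knockout nuclei (interval 0.268 to 1.36%). Before thinning the shares were 11.2% at a median depth of 1558 UMIs and 0.657% at 965 UMIs, and shallow nuclei left out of the thinned values numbered 244 and 1229. The unnamed cluster of the best injured tubule score had 4.86% of 1028 knockout nuclei and 0.518% of 193 control nuclei. Proximal tubule nuclei had 0.728% of 11542 knockout nuclei and 0.0487% of 14370 control nuclei after thinning. These intervals cover counting error only.

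In proximal tubule nuclei C3 was low in both genotypes. It had 8.47, 11.9 and 6.5 CPM in knockouts 1, 2 and 3, against 0.619, 0.408 and 1.42 CPM in controls 1, 2 and 3. The groups did not overlap, where 7.41% of genes tested lay wholly higher in the knockouts and 5.59% wholly lower. The log2 fold change of 3.36 ± 0.52 did not pass (edgeR adjusted p = 0.165), and 0.0380% of the 13144 genes were called in this class. The C3 level of proximal nuclei was 13.5, 6.72 and 4.15% of that of injured tubule nuclei in knockouts 1, 2 and 3. The same ratio was 4.49, 2.11 and 1.19% for Havcr1 and 1.25, 0.939 and 0.544% for Cd44. Cd44 was among the 10 leading genes of both injured clusters and Havcr1 only of the larger. Cd44 was not one of the 8 injured tubule markers. Of those markers Dcdc2a, at 21.9, 9.53 and 11.9%, and Krt8, at 72.1, 20.2 and 13.6%, had a higher ratio than C3 in each of the 3 knockouts. For the 8 markers summed it was 8.09, 3.85 and 3.65%, and the part of RNA from other cells in the C3 values was not tested.

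**Figure D2:**
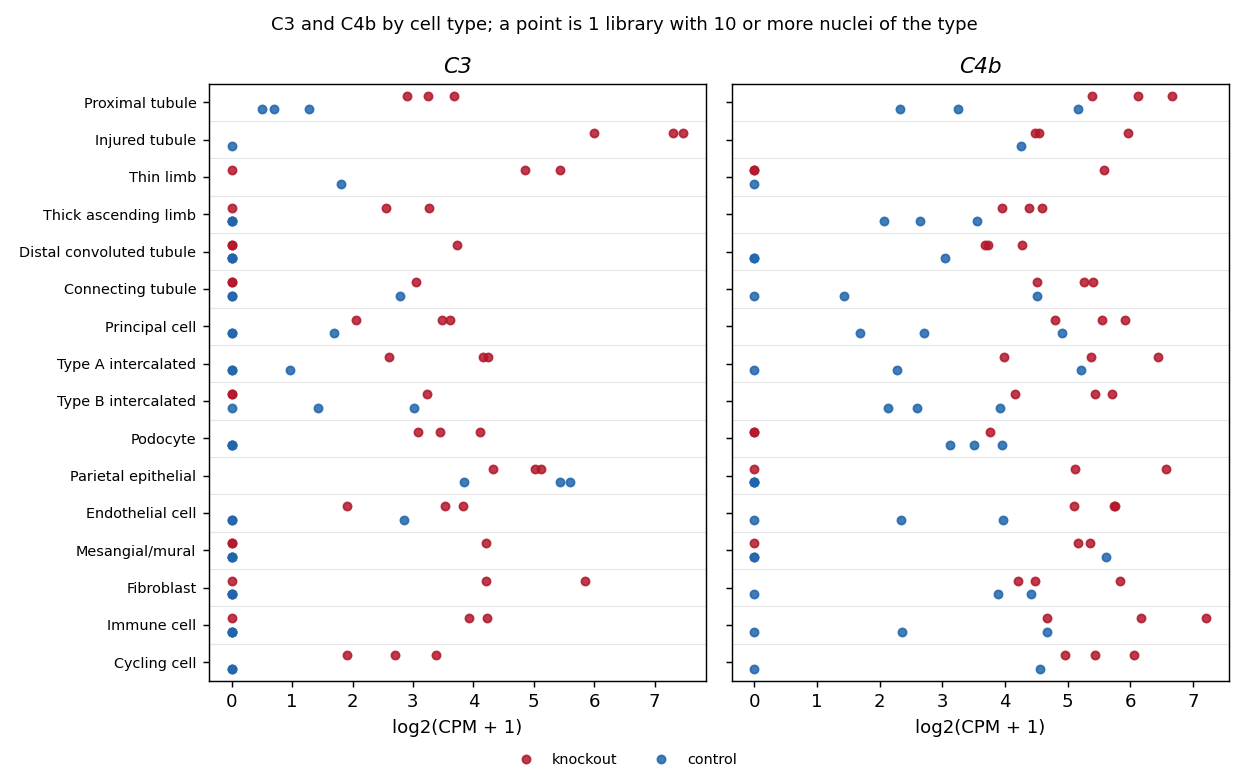
C3 (left) and C4b (right) by cell type on a log2(CPM + 1) axis; a point is 1 library with 10 or more nuclei of the class, red for knockout and blue for control. C3 of the knockouts is highest in the injured tubule. C4b of the knockouts lies above every control point in 8 of the 14 classes that could be compared. Of gene by class pairs that passed the filter on low counts 8.06% did so, and C4b did not pass it in some of the 14.

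Without injured tubule, immune and cycling nuclei, C3 was still 12.2, 16.7 and 10.4 CPM in knockouts 1, 2 and 3, against 0.685, 1.04 and 1.93 CPM in controls 1, 2 and 3. The log2 fold change was 3.44 ± 0.44 and the adjusted p 0.113 in edgeR, so the call over all nuclei was not met in this subset. In edgeR 0 of 8 members passed there, 4 had an unadjusted p under 0.05, and DESeq2 called 1, C3. Of all 15818 genes tested in the subset, 0.0253% were called. The subset kept the unnamed cluster described above.

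The upstream sequence of C3 is shown because C3 was the member called. That of C1s1 was added as the other member with over 20 knockout UMIs and no UMI in the 29 control nuclei of the injured tubule. Both are RefSeq sequences on GRCm38.p6, read 5′ to 3′ up to the transcription start on the minus strand: chr17:57228137-57228386 for C3 and chr6:124542360-124542609 for C1s1. Capitals mark matches to TTGCNNAA on either strand, a short form of the site of C/EBP factors, which take part in acute-phase transcription.
C3: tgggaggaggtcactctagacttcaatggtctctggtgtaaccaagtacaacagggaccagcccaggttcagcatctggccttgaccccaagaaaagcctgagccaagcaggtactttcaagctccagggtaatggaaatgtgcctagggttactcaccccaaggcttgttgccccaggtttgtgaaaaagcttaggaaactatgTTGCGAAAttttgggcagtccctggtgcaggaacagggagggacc
C1s1: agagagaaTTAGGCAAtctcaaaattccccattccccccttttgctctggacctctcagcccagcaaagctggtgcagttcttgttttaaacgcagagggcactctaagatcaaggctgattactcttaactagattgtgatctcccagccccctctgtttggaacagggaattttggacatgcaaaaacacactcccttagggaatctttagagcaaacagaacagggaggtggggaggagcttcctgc
The match lay 45 bases before the start on the plus strand of the C3 sequence and 242 bases before it on the opposite strand in C1s1. Of 32851 promoter windows of 300 bases, 10.8% held the motif. No match was found in either window to an NF-kB form (GGG, then 3 bases of any kind, then TTCC) held by 5.56% of windows, or to TTCNNNGAA, a STAT form held by 8.30%. C1s1 has a second RefSeq start downstream, whose window held none of the 3 motifs. A match is a string of letters and not a measured site. Entries were found for 5 of the 9 members (C3, C1s1, C1qb, C1qc and Cd55).

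C4b (chr17:34728380-34743882, minus strand), the mouse C4 cut by C1s, had the highest knockout level of the members, and its knockout libraries lay above the controls by a narrow margin. Over all nuclei it had 32.1, 56.9 and 74.6 CPM in knockouts 1, 2 and 3, against 3.75, 7.23 and 31 CPM in controls 1, 2 and 3. Control 3 thus came close to knockout 1, while controls 1 and 2 lay far below every knockout. The log2 fold change was 1.93 ± 0.74 (SE, n = 3 each) and did not pass (edgeR adjusted p = 0.441). With the library number as a block, C4b passed with a log2 fold change of 2.35 ± 0.38 and an edgeR adjusted p of 0.0426. The correlations of libraries set number 1 apart but did not tell numbers 2 and 3 from each other. C4a, the near-identical neighbour of C4b, was not analysed here, and how reads that match both genes were counted was not examined.

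Within number pairs C4b was higher in each knockout, as any pairing of the libraries would give, since the groups did not overlap. The pair numbered 1 had 32.1 CPM in the knockout and 3.75 CPM in the control, the pair numbered 2 had 56.9 and 7.23 CPM, and the pair numbered 3 had 74.6 and 31 CPM. The level thus differed between numbers as well as between genotypes.

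By cell type C4b was spread widely, with proximal tubule nuclei holding 54.5% of its 2487 knockout UMIs and 63.0% of its 598 control UMIs. These shares compare with 43.4% and 54.4% of all UMIs. Proximal tubule nuclei had 41.1, 68.9 and 100 CPM in knockouts 1, 2 and 3 and 4.00, 8.57 and 35 CPM in controls 1, 2 and 3. The 2 groups of 3 did not overlap, and the log2 fold change of 2.12 ± 0.75 did not pass (edgeR adjusted p = 0.611). In knockout 3 a single proximal cluster of 999 nuclei, nearly all from that library, had 145 CPM of C4b and 325 of its 432 proximal UMIs. C4b was among the leading genes of that cluster.

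Injured tubule nuclei, where C3 was highest, had less C4b than proximal tubule nuclei in each knockout, at 22.2, 21.4 and 61.5 CPM. Podocyte nuclei of knockouts 2 and 3 had 0 UMIs of C4b, and those of knockout 1 had 12.5 CPM on 5 UMIs. Immune nuclei stood first in the knockout order with 24.5, 147 and 71.0 CPM, but on 12, 13 and 4 UMIs, and their range overlapped that of the proximal tubule. C4b was higher in every knockout library than in every control library in 8 of the 14 classes that could be compared, of which cycling nuclei had only 2 control libraries. Of all pairs of a gene and a class tested, 8.06% lay wholly higher in the knockouts. Those pairs had passed the filter on low counts, which C4b did not in some of the 14 classes. The classes of 1 library share its free RNA and are not independent.

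In endothelial nuclei C4b had 33.5, 52.5 and 52.9 CPM in knockouts 1, 2 and 3, against 4.09, 0 and 14.6 CPM in controls 1, 2 and 3. The log2 fold change was 2.87 ± 0.60 and did not pass in edgeR (adjusted p = 0.547), where 0.0146% of genes were called, but did with the number as a block (2.80 ± 0.47, adjusted p = 0.00962). Principal cells of the collecting duct had 26.8, 59.2 and 45.6 CPM, against 2.23, 5.52 and 29 CPM, with a log2 fold change of 2.12 ± 0.68 and an edgeR adjusted p of 0.565, where 0.0428% of genes were called. C4b outside the proximal tubule was set beside the proximal tubule markers in the same nuclei. In endothelial nuclei C4b was 81.6, 76.2 and 52.8% of its proximal level in knockouts 1, 2 and 3, and the 10 proximal markers summed were at 73.1, 77.4 and 64.5% of theirs. In distal convoluted tubule nuclei C4b was at 30.0, 17.2 and 18.4% and the markers at 27.3, 11.4 and 8.95%. The part of proximal RNA in these C4b values was not tested.

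**Figure D3:**
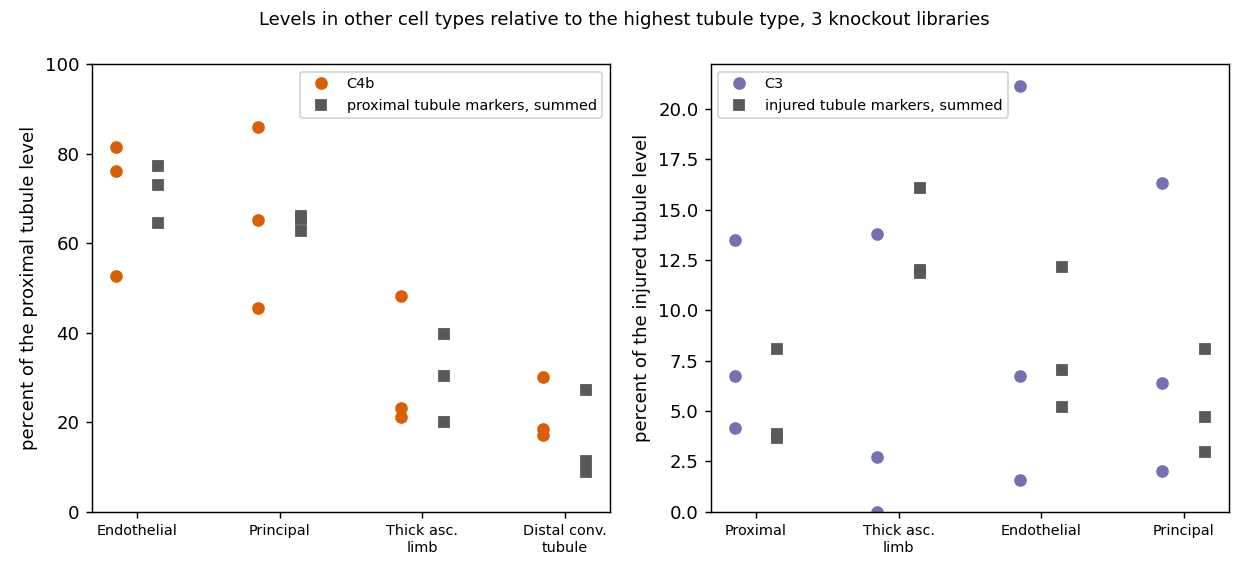
Left, CPM of C4b and of 10 proximal tubule markers summed in 4 other classes, as a percentage of the proximal tubule level; right, CPM of C3 and of 8 injured tubule markers summed in 4 other classes, as a percentage of the injured tubule level. A point is 1 of the 3 knockout libraries, and in endothelial nuclei C4b lies between 52.8 and 81.6% with the proximal markers between 64.5 and 77.4%.

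Cfb (chr17:34856374-34862518, minus strand), the factor B that carries the protease of the alternative convertase, was at similar low levels in both genotypes. Over all nuclei it had 9.10, 7.26 and 10.4 CPM in knockouts 1, 2 and 3 and 13.0, 6.97 and 7.59 CPM in controls 1, 2 and 3. The groups overlapped, with a log2 fold change of -0.14 ± 0.32 and an edgeR adjusted p of 0.938. Proximal tubule nuclei held 51.0% of its 508 knockout UMIs and 60.1% of its 776 control UMIs, against 43.4% and 54.4% of all UMIs. Their levels were 10.4, 7.03 and 14.9 CPM in the knockouts and 13.8, 11 and 8.68 CPM in the controls. Injured tubule nuclei of the knockouts had 10.0, 15.3 and 12.3 CPM on 23, 5 and 4 UMIs, which overlapped the proximal range. Immune nuclei came first in the knockouts with 10.2, 22.6 and 35.5 CPM on 5, 2 and 2 UMIs, and their range overlapped that of the class after them. A gene on the same strand, Gm20547, overlaps Cfb, and what this does to the Cfb counts was not tested.

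The C1 complex starts the classical pathway, and its C1q genes were highest in immune nuclei but rested on few UMIs. C1qa had 12.2, 11.3 and 35.5 CPM in immune nuclei of knockouts 1, 2 and 3 on 6, 1 and 2 UMIs, and 16.5, 0 and 16.2 CPM in those of controls 1, 2 and 3 on 4, 0 and 2 UMIs. The next class in the knockouts, the distal convoluted tubule, had 5.28 CPM in knockout 1 and 0 UMIs in the others. Immune nuclei also came first for C1qb and C1qc in both genotypes, but their ranges overlapped those of the next class. C1qb had 8.16, 11.3 and 0 CPM in immune nuclei of knockouts 1, 2 and 3 on 4, 1 and 0 UMIs, and 12.4, 26.5 and 16.2 CPM in those of controls 1, 2 and 3 on 3, 1 and 2 UMIs. The knockouts lay wholly lower, as did 5.27% of the genes tested in immune nuclei, and the counts were too low for a test. Clusters with markers of more than 1 cell type had 5.29, 7.37 and 2.03 CPM of C1qa in knockouts 1, 2 and 3 on 11, 5 and 2 UMIs, and 9.51, 2.28 and 10.8 CPM in controls 1, 2 and 3 on 20, 2 and 7 UMIs. The 3 genes lie side by side on the minus strand of chromosome 4, between positions 136880129 and 136898803 of GRCm38.

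A UMI of any C1q gene was found in 17 of 337 immune nuclei of the knockouts (5.04%, exact 95% interval 2.97 to 7.95%) and in 12 of 148 of the controls (8.11%, interval 4.26 to 13.7%). Thinned to 1000 UMIs the shares were 2.54% of 276 and 4.20% of 119 nuclei. Proximal tubule nuclei, which should lack these genes, gave 0.580% of 11542 knockout nuclei and 0.397% of 14370 control nuclei at that depth. Their median depth before thinning was 1505 and 1956 UMIs, against 1587 and 2074.5 UMIs in immune nuclei, and their unthinned shares were 0.955% and 0.826%. Immune clusters with a raised myeloid score had 41.5 CPM of the 3 genes summed in 123 knockout nuclei (interval 20.7 to 74.2 CPM) and 45.8 CPM in 46 control nuclei (interval 18.4 to 94.3 CPM). The other immune clusters had 18.9 CPM in 214 knockout nuclei and 32.0 CPM in 102 control nuclei, with intervals that overlap those of the myeloid clusters.

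Over all nuclei the C1q genes did not differ between the genotypes beyond the spread. C1qa had 3.41, 1.38 and 0.802 CPM in knockouts 1, 2 and 3 and 2.92, 0.387 and 1.12 CPM in controls 1, 2 and 3, so that the library numbered 1 was highest in both groups. Its log2 fold change was 0.20 ± 0.80 (edgeR adjusted p = 0.966). C1qb had 2.58, 1.04 and 0.713 CPM in the knockouts and 1.69, 0.775 and 1.21 CPM in the controls, with a log2 fold change of 0.18 ± 0.61 (edgeR adjusted p = 0.962). C1qc had 1.89, 0.807 and 0.624 CPM in the knockouts and 1.23, 0.387 and 0.690 CPM in the controls and did not reach the count needed for a test. Immune nuclei were 1.39, 0.878 and 0.710% of nuclei in the knockouts and 0.478, 0.428 and 1.03% in the controls. The shares overlapped (two-sided exact permutation p = 0.3, where the smallest p possible is 0.1).

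C1s1 (chr6:124530345-124542359, minus strand), which encodes the C1s protease, was highest in stromal nuclei of the knockouts, followed by the injured tubule. Fibroblast nuclei had 43.9, 21.3 and 42.2 CPM in knockouts 1, 2 and 3 on 10, 1 and 3 UMIs, against 0, 0 and 27.6 CPM in controls 1, 2 and 3 on 0, 0 and 2 UMIs. Mesangial and mural nuclei had 43.5, 43.1 and 39.9 CPM in the knockouts on 5, 1 and 1 UMIs, against 8.36, 0 and 0 CPM in the controls on 1, 0 and 0 UMIs. Both classes lay above the injured tubule, which had 13.5, 9.16 and 9.22 CPM in the knockouts on 31, 3 and 3 UMIs and 0 UMIs in the controls. The controls had only 29 nuclei of that class, so the 0 allows levels above those of the knockouts. Proximal tubule nuclei had 2.27, 1.08 and 0.464 CPM in the knockouts and 1.02, 0.408 and 0.427 CPM in the controls.

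Over all nuclei C1s1 had 4.00, 2.42 and 1.78 CPM in knockouts 1, 2 and 3 and 1.19, 0.516 and 1.12 CPM in controls 1, 2 and 3. The groups did not overlap, but the log2 fold change of 1.42 ± 0.50 did not pass (edgeR adjusted p = 0.382). Injured tubule nuclei held 20.0% of its 185 knockout UMIs, fibroblasts 7.57%, and proximal tubule nuclei 23.2%. C1s2, a near copy, could share its reads, and an antisense gene, Gm16567, overlaps it.

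Across all 9 members, 3 lay wholly higher in the knockouts over all nuclei (C3, C4b and C1s1), none lay wholly lower, and 6 overlapped. Of all genes tested, 10.7% lay wholly higher and 5.52% wholly lower, so the share of members wholly higher was read against that background. Within the 14 classes that could be compared, C4b lay wholly higher in the knockouts in 8, C3 in 5, C1s1 in 2 and Cd55 in 1, while Cfb lay wholly lower in 2 and C1qb in 1. Of all pairs of a gene and a class tested, 8.06% lay wholly higher and 6.14% wholly lower. Those pairs had passed the filter on low counts, as only 11 of the member pairs did, so the sets differ. C3 in podocytes, for example, rested on 5 knockout UMIs and 0 control UMIs. The 2 control libraries of cycling nuclei make it easier for groups not to overlap there, and 1 class each of C3, C4b and Cfb was that one.

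**Figure D4:**
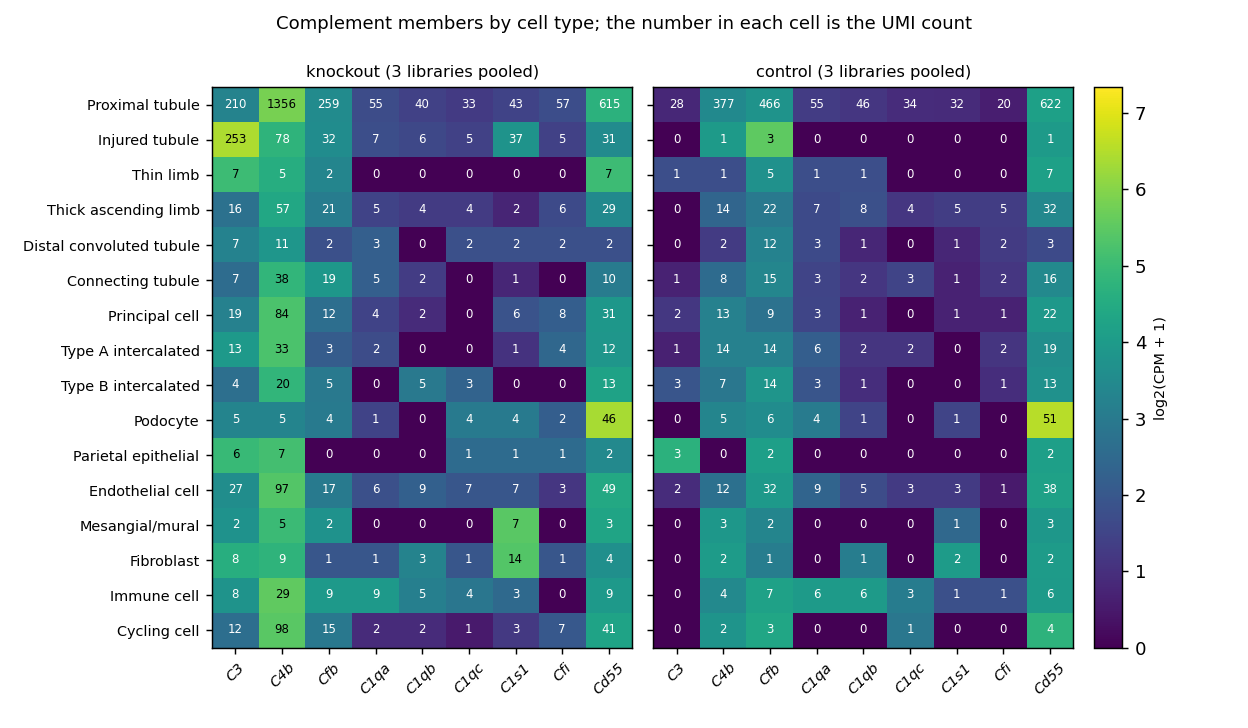
Pooled levels of the 9 members in 16 cell classes, on a log2(CPM + 1) colour scale, with the UMI count written in each cell; knockout on the left, control on the right. C3 is brightest in the injured tubule of the knockouts and Cd55 in the podocyte of both, while the C1q columns hold 3 to 9 UMIs in immune nuclei.

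Cd55 (chr1:130439027-130462744, minus strand), the membrane regulator that speeds the decay of convertases, was the member most marked in podocytes, the cells that the Cre addresses. Podocyte nuclei had 62.5, 97.5 and 150 CPM in knockouts 1, 2 and 3 on 25, 6 and 15 UMIs, against 106, 117 and 20.7 CPM in controls 1, 2 and 3 on 41, 8 and 2 UMIs. The ranges overlapped and the log2 fold change was 0.20 ± 0.57 (edgeR adjusted p = 0.926), where 0.200% of genes in podocytes were called. In the knockouts every podocyte library lay above every library of the next class, mesangial and mural nuclei at 8.71 to 43.1 CPM, whereas in the controls control 3 fell within the range of the next class. Pooled over libraries, podocytes had 81.9 CPM in the knockouts (exact Poisson interval 60.0 to 109 CPM) and 92.2 CPM in the controls (interval 68.7 to 121 CPM).

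With nuclei thinned to 1000 UMIs, 5.41% of 259 podocyte nuclei of the knockouts and 8.33% of 192 of the controls had a Cd55 UMI. Distal convoluted tubule nuclei, the class with the lowest Cd55 mean in the knockouts, gave 0.314% of 318 knockout nuclei and 0.589% of 509 control nuclei. The knockout mean was 1.17 CPM there, against 10.6 CPM in thick ascending limb and 29.8 CPM in proximal tubule nuclei. The unthinned podocyte shares were 10.1% at a median of 1178.5 UMIs and 13.7% at 1420 UMIs, against 0.287% at 963 UMIs and 0.486% at 1517 UMIs in the distal convoluted tubule. A small unnamed cluster led by urothelial genes such as Upk1b had 46.0 CPM of Cd55 in 100 knockout nuclei and 52.8 CPM in 90 control nuclei.

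Proximal tubule nuclei nevertheless held 54.8% of the 1123 knockout UMIs of Cd55 and 58.0% of its 1073 control UMIs. Their share of all UMIs was 43.4% and 54.4%, so the Cd55 share in the controls was near that of all genes. Proximal nuclei had 20.4, 24.6 and 44.6 CPM in knockouts 1, 2 and 3 and 17.8, 13.5 and 14.4 CPM in controls 1, 2 and 3. The groups did not overlap, but the log2 fold change of 0.93 ± 0.32 did not pass (edgeR adjusted p = 0.609). In knockout 3 the single proximal cluster with high C4b described above also held 105 of the 192 proximal Cd55 UMIs, at 46.9 CPM. Over all nuclei Cd55 had 16.3, 19.4 and 32.9 CPM in the knockouts and 17.1, 11.9 and 12.9 CPM in the controls, with overlap between knockout 1 and control 1. The log2 fold change was 0.62 ± 0.30 (edgeR adjusted p = 0.579). Cd55b, a near copy, could share its reads.

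Cfi (chr3:129835884-129875332, plus strand), the plasma protease that inactivates C3b and C4b, was the lower of the 2 regulators. It had 2.86, 3.11 and 0.980 CPM over all nuclei of knockouts 1, 2 and 3 and 0.535, 0.387 and 1.29 CPM in controls 1, 2 and 3. Knockout 3 lay below control 3, so the groups overlapped, and the log2 fold change of 1.61 ± 0.65 did not pass (edgeR adjusted p = 0.480). Its 141 knockout UMIs and 44 control UMIs were scattered, with 40.4% and 45.5% of them in proximal tubule nuclei, near that class's share of all UMIs. The class first in the knockout order, principal cells, had 1.57, 14.1 and 1.57 CPM on 2, 5 and 1 UMIs and overlapped the class after it. No cell type can be named as its source at this depth.

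**Figure D5:**
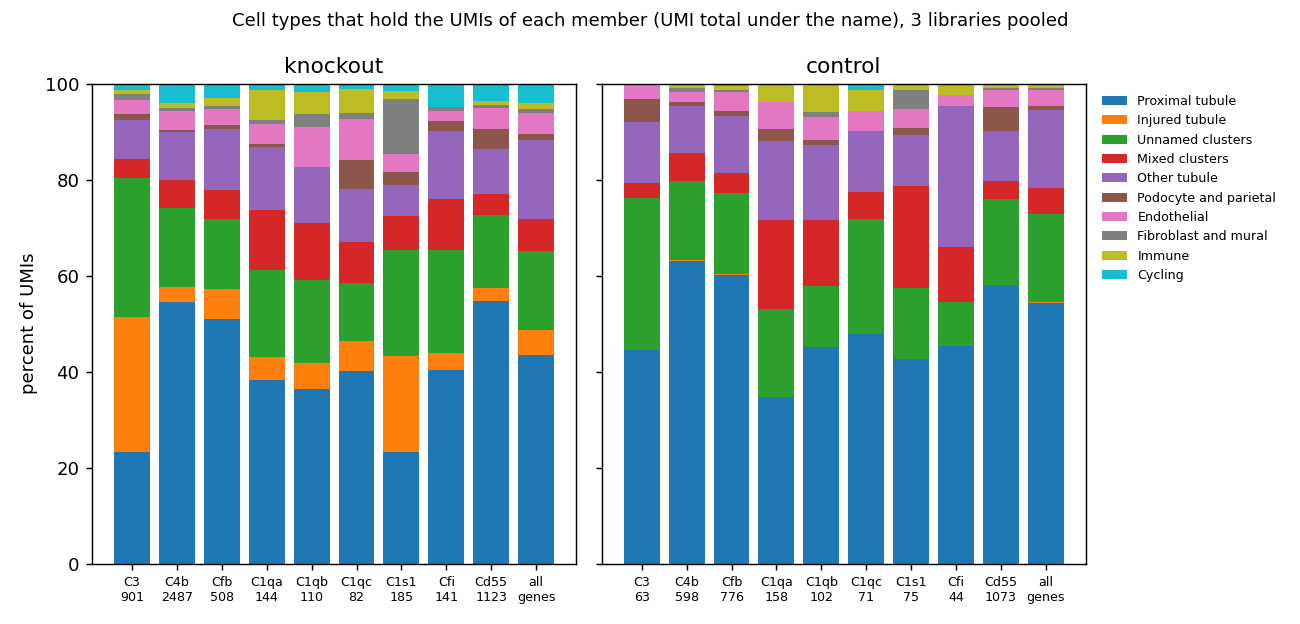
Percentage of each member's UMIs by cell type, with the UMI total under each name and the share of all genes' UMIs as the last bar; 3 libraries pooled, knockout on the left and control on the right. The injured tubule takes 28.1% of C3 and 20.0% of C1s1 in the knockouts against 5.27% of all UMIs. For C4b, Cfb and Cd55 the proximal tubule takes 51.0 to 54.8% in the knockouts against 43.4% of all UMIs. In the controls it takes 58.0 to 63.0% of them against 54.4%.

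Within the cell types the counts allowed 11 tests of 4 members in 6 classes, and edgeR called 0 of them, with 6 at an unadjusted p under 0.05. Over all classes and genes 0.0399% of tests were called. DESeq2 called 1 of the 11, C3 in the proximal tubule, and edgeR with the library number as a block called 1, C4b in endothelial nuclei. The tests not given above were Cfb in the proximal tubule (log2 fold change -0.08 ± 0.34, adjusted p = 0.971), C4b in cycling nuclei (log2 fold change 2.67 ± 1.16, adjusted p = 0.565, with 2 control libraries) and in type A intercalated nuclei (2.04 ± 0.95, adjusted p = 0.690), and Cd55 and Cfb in cycling nuclei (-0.53 and -1.60, adjusted p = 0.926 and 0.704), all by edgeR. The injured tubule class itself was 6.46, 5.17 and 3.33% of nuclei in knockouts 1, 2 and 3 and 0.132, 0.0802 and 0.0792% in controls 1, 2 and 3. These shares did not overlap (two-sided exact permutation p = 0.1, the smallest possible, and 0.3 after adjustment over 3 classes). Parietal epithelial nuclei, where C3 had 6 knockout and 3 control UMIs in all, were 0.296, 0.552 and 0.451% of nuclei in the knockouts and 0.167, 0.374 and 0.297% in the controls (exact p = 0.3).

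The genes whose levels ran most like a member's over 91 sums of a class in a library were found by Pearson correlation of log2(CPM + 10), as a description, since sums of 1 library share its depth and free RNA. For C3 they were Ankrd1 (r = 0.68), the chemokine gene Cxcl2 (0.66) and Stx11 (0.65). For C4b they were Slc16a14 (0.69), B4galt5 (0.68) and Slc6a15 (0.62). C1qa ran with Lyz2 (0.81), a lysozyme of myeloid cells, Spi1 (0.80), which encodes the myeloid factor PU.1, and Btla (0.80). C1qb ran with Itgax (0.78), Ms4a4b (0.73) and Rinl (0.67), and C1qc with Ccr2 (0.70), Ly86 (0.69) and Laptm5 (0.69). C1s1 ran with the stromal genes Tpm2 (0.75) and Col5a2 (0.75), and with Klhl13 (0.71). For Cd55 they were Ildr2 (0.62), Unc5c (0.62) and Rhpn1 (0.61), for Cfb Aqp1 (0.60), the water channel of the proximal tubule, Tm2d2 (0.58) and Erich4 (0.56), and for Cfi Ahnak2 (0.58), Atxn7l1os2 (0.57) and Armcx6 (0.53).

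Of 40 other complement genes, 25 could be tested over all nuclei and edgeR called 0, with 2 at an unadjusted p under 0.05; DESeq2 called 1 and edgeR with the number as a block called 1. Both of these calls were C7, a part of the membrane attack complex. C7 had 8.71, 9.34 and 13.2 CPM in knockouts 1, 2 and 3 and 2.16, 2.58 and 5.26 CPM in controls 1, 2 and 3, with no overlap and a log2 fold change of 1.59 ± 0.38 (edgeR adjusted p = 0.185, and 0.0344 with the block). Within cell types 0 of 62 tests of these genes were called by edgeR, with 6 at an unadjusted p under 0.05, and DESeq2 called 0. By list, the median log2 fold change over all nuclei was 0.59 for 5 tested genes of classical and lectin initiation and 0.22 for 7 of the terminal pathway. It was 0.04 for 2 receptors, 0.02 for 3 soluble regulators and 0.03 for 7 membrane regulators, while the 1 gene tested of the alternative pathway, Cfp, had 0.17. Over all 16130 genes the median was -0.03.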

How the data were processed

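UMI counts per gene and barcode were deposited for 6 libraries; per the file headers they came from Cell Ranger 3.1.0, with Seurat and the mm10 build named in the submitters' processing notes. The aligner settings and the reads counted (exonic or intronic) are not given in the sources used here. The members and the gene lists were chosen with earlier results of these data known. All 9 members were named in every class, and of 40 other complement genes those that passed a test and the highest of each list, of which 1 is not reported here.

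Nuclei with at least 300 genes and at most 5% mitochondrial UMIs were kept, and the highest Scrublet scores were removed at 0.8% per 1000 barcodes, because automatic calls marked 0 to 6 nuclei in the 4 libraries numbered 2 and 3. Of 978 barcodes found in 2 or more libraries, 831 were among the nuclei used. Clusters were made with scanpy 1.11.5 and Leiden (igraph 0.11.9, Python 3.11.15) from 3000 variable genes without complement genes. A name needed a marker score of 1 and 3 raised markers, except for the proximal tubule. That name went by default to clusters of the first grouping in which no other class scored high. Their proximal marker scores against all other nuclei ran from -0.56 to 0.39, with 0 to 2 raised markers. Rebuilt names may differ from those of the study.

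Counts were summed per library and class (at least 10 nuclei) and given as CPM of that sum. The sums were tested with edgeR 4.0.16 in R 4.3.3 (TMM, filterByExpr, quasi-likelihood test, Benjamini-Hochberg adjustment over all genes, threshold 0.05), after tests on simulated data. DESeq2 1.42.0, other filters, other class names and left-out libraries were alternatives. Same-numbered libraries deviated together from their group means over 15351 genes (r = 0.63, 0.37 and 0.35 for numbers 1, 2 and 3), so the number was also used as a block. The labels do not say what the number marks. Knockout 2 correlated with control 3 at 0.41 and knockout 3 with control 2 at 0.29, so these values did not tell numbers 2 and 3 apart. Replicates differed beyond counting noise (chi-square per degree of freedom 19.8 to 108). Intervals are 95% and exact, a count of 0 is bounded by 3 counts, and both cover counting error only. Gene positions are from GENCODE M21 on GRCm38.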

Additional observations from a re-analysis of the deposited data

How the results depend on the processing

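Over all nuclei the number of members called was 1 in the analysis reported. It was 2 (C3 and C4b) with the replicate number as a block and ran from 0 to 1 when each library was left out, where C3 was lost without knockout 2, knockout 3, control 2 or control 3. Over 14 alternatives the log2 fold change of C3 ran from 3.51 to 4.34 and its adjusted p from 5.94e-15 to 0.244, with 10 calls. Without injured tubule, immune and cycling nuclei, 0 members were called, and 1 (C3) with DESeq2, with no filter on low counts and without both libraries numbered 1. Within cell types 0 were called, and 3 with no filter on low counts. There was 1 call with each of DESeq2 and the block. Classes named by the highest marker score and the widened injured tubule class also gave 1 call each, C3 in the injured tubule. Those 2 calls were the same fit (log2 fold change 4.66 ± 0.84), which left out control 2. The block changed no other call of a member. Genes called over all nuclei numbered 31, and 492 with DESeq2, 76 with no filter, 279 with the block, 461 without both libraries numbered 1 and 0 to 39 with 1 library left out. Some log2 fold changes of low members changed direction. With each library left out Cfb ran from -0.32 to 0.29, C1qa from -0.62 to 1.30, C1qb from -0.60 to 0.58 and Cd55 in podocytes from -0.17 to 0.73. Cfb turned positive without control 1, C1qa and C1qb (-0.20 and -0.06) negative without control 2 and both without knockout 1, and Cd55 negative without knockout 3 (-0.15) or control 3. Without both libraries numbered 1 Cfb was at 0.27 and C1qb at -0.25. The knockout mean of C1s1 in mesangial and mural nuclei, 42.2 CPM, became 37.2 CPM with complement genes kept in the clustering and 28.8 CPM with doublets kept, on few UMIs. The causes of these changes were not tested. Depth limits the levels of C1q, C1s1, Cfi and Cfb by cell type, with 0 to 10 knockout UMIs per library in the classes where they were highest.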

Other observations

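Levels by cell type of the other complement genes are given for some of those highest over all nuclei in their list, with no test except where one is named. Csmd1, a membrane protein with complement control domains, averaged 4930 ± 2428 CPM in knockout fibroblasts and 3600 ± 1969 CPM in control fibroblasts (SD, n = 3 each). C8a, a chain of the membrane attack complex, averaged 121 ± 5.65 CPM in proximal tubule nuclei of the knockouts and 82.6 ± 17 CPM in those of the controls, and it did not pass within that class (edgeR adjusted p = 0.638). C7 was highest in fibroblasts, at 620 ± 446 CPM in the knockouts and 206 ± 179 CPM in the controls. Masp2, Cr2 and Cfp were the highest of their lists.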
